A study of Homo sapiens with 6 samples.

Results

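The transcripts described here encode the ferritin chains and the proteins that move, sense and release cellular iron. FTH1 and FTL are the ferritin chains, TFRC and SLC11A2 bring iron in, SLC40A1 exports it, ACO1 and IREB2 encode the iron regulatory proteins IRP1 and IRP2, FBXL5 directs the destruction of IRP2, NCOA4 delivers ferritin to the lysosome, and HMOX1 frees iron from heme. These 10 genes were chosen by name from the 58735 genes of the expression table, with measured values of the same siPSCA and NC comparison already known, so their own differences are given as a description without a test. The question was whether transcripts that carry an iron-responsive element (IRE) move as one.

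HCT116SCs are cells of the human colorectal cancer line HCT116 (wild type in the labels) that carry the surface proteins CD44 and CD326 and were sorted for them on magnetic beads. They grew as tumor spheres in serum-free medium with EGF, bFGF and B27, and were transfected with liposomal reagent and either a negative control siRNA (NC, n = 3 libraries) or siRNA against prostate stem cell antigen (siPSCA, n = 3 libraries). All were harvested after 48 h. Both groups therefore share the line, the sort, the medium and the reagent. The siPSCA sequence used for RNA sequencing is not named, all libraries come from 1 cell line, and nothing states that the libraries of a group are separate cultures. The p-values given for genes outside the 10 then measure the spread between these libraries, which may be technical.

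Cells keep free iron within narrow limits because iron drives both essential enzymes and oxidative damage. When iron is scarce, IRP1 and IRP2 bind IREs, short RNA hairpins with a CAGTGN loop (CAGUGN in RNA) and an unpaired C below it. A hairpin in the 5′ untranslated region (UTR), as in the ferritin mRNAs, then blocks translation, whereas hairpins in the 3′ UTR of the TFRC mRNA protect it from decay. With ample iron, IRP1 becomes the cytosolic aconitase and FBXL5 marks IRP2 for degradation. Sequencing of mRNA sees the decay arm of this switch and not the translation arm. Colorectal cancer cells are known for avid iron uptake.

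The IREs were located in the transcripts of GENCODE release 29, whose gene positions on GRCh38 are those of the expression table. The pattern was a C, any 5 bases, CAGTGN and 5 bases able to pair with the former 5 (G-T pairs allowed), sought on the transcript strand. Full pairing was found in the 5′ UTR of 36 of 18809 genes (0.191%) and in the 3′ UTR of 132 of 19089 genes (0.692%). With 4 of the 5 pairs required, these shares were 1.55% and 4.75%. The matches of the ferritin, exporter and importer transcripts, which are known to carry the element, are shown because the comparison turns on them. The unpaired C and the CAGTGN loop stand in capitals.
FTH1, 5′ UTR: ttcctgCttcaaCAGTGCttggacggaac
FTL, 5′ UTR: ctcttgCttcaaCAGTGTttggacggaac
SLC40A1, 5′ UTR: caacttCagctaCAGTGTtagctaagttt
TFRC, 3′ UTR, nearest the stop codon: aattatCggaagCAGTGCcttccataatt
TFRC, 3′ UTR, next: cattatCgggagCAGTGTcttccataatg
TFRC, 3′ UTR, farther: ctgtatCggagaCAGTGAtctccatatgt
TFRC, 3′ UTR, farthest: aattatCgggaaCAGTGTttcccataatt
SLC11A2, 3′ UTR, 4 of 5 pairs: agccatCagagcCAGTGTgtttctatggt

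The FTH1 element lies at chr11:61967574-61967602 on the minus strand, 59 bases from the 5′ end of FTH1-201. That of FTL lies at chr19:48965335-48965363 on the plus strand, 35 bases from the 5′ end of FTL-201, and 26 of its 29 bases are those of FTH1 (89.7%). The SLC40A1 element, at chr2:189580661-189580689 on the minus strand, has 13 of 29 bases in common with that of FTH1. The TFRC elements lie on the minus strand at chr3:196050979-196051007, chr3:196050575-196050603, chr3:196050510-196050538 and chr3:196050463-196050491, and begin 935, 1339, 1404 and 1451 bases after the stop codon. The SLC11A2 match, at chr12:50988269-50988297 on the minus strand, belongs to the transcript SLC11A2-202. No fully paired match was found in the UTRs of FBXL5, NCOA4, HMOX1, ACO1 or IREB2. ACO1 and IREB2 each had a match with 4 of 5 pairs in the 3′ UTR. A match describes letters and pairing and is not a measured binding site.

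Reads on genes ranged from 16099716 to 17302219 per library, and 1 read on a gene of 1 kilobase equaled 0.0549 to 0.0595 FPKM (reads per kilobase of exon, scaled to the library total). The markers of the labeled cells were present, with 82.6 ± 4.36 FPKM of CD44 and 107 ± 14.4 FPKM of EPCAM (CD326) in NC (SD, n = 3), while CD44 was lower in siPSCA (60.7 ± 1.51, groups apart). The epithelial keratin genes KRT8 and KRT18 had 20384 to 25462 and 6390 to 7944 reads per library, and KRT20 had 136 to 186. The intestinal factor CDX2 (119 to 306 reads) was higher in siPSCA and the stem cell marker PROM1 (342 to 644 reads) was lower, both with groups apart. VIL1 and LGR5, which mark intestinal epithelium and its stem cells, stood at 0 to 8 reads. Markers of leukocytes (PTPRC) and endothelium (PECAM1) had at most 20 reads, and of the fibroblast genes COL1A2 had 0 or 1 read while COL1A1 had 4.71 ± 1.20 FPKM in NC and 6.16 ± 0.303 in siPSCA. PSCA, the siRNA target, had 4, 12 and 15 reads in NC and 9, 9 and 7 in siPSCA, so its reads do not check the labels. GC-rich genes tended to be higher in siPSCA, with a rank correlation of 0.664 between GC content and log2 difference over 13792 genes, which are not independent of each other. NC 3 stood apart in the same respect. Its departure from the mean of the other NC libraries had a rank correlation of -0.561 with GC content, against -0.38 to 0.48 for the remaining libraries. Values without NC 3 or with the GC trend removed are therefore given beside the results that they moved most.

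Ferritin light chain was by far the most abundant of these transcripts, and its level was higher in siPSCA. FTL forms the part of the ferritin shell that promotes storage of the iron core. It measured 1423, 1435 and 1186 FPKM in NC 1, NC 2 and NC 3, and 2107, 2073 and 2076 FPKM in siPSCA 1, siPSCA 2 and siPSCA 3. All siPSCA libraries lay above all NC libraries, and NC 3 was the lowest. The means were 1348 ± 140 and 2086 ± 18.8 FPKM (SD, n = 3), a 1.55-fold level, with a difference of 0.63 on the log2(FPKM + 1) scale (standard error 0.08). Without NC 3 the log2 difference was 0.55, and with the trend on GC content and length removed it was 0.49. As RNA was taken from whole cultures, more cells of one kind and more RNA per cell cannot be told apart.

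On the log2(FPKM + 1) scale, ferritin heavy chain had the widest spread in NC and the largest difference of the 10 genes. FTH1 encodes the ferroxidase subunit, which oxidizes ferrous iron as it enters the shell. Its level was 105, 84.3 and 22.8 FPKM in NC 1, NC 2 and NC 3, from 3592, 2981 and 798 reads. In siPSCA 1, siPSCA 2 and siPSCA 3 it was 624, 599 and 524 FPKM, from 21428, 21624 and 19371 reads. The groups did not overlap, and NC 3 had 24.1% of the mean of the other NC libraries.
The mean level was 70.8 ± 42.9 FPKM in NC and 582 ± 52.2 FPKM in siPSCA (SD, n = 3), an 8.22-fold level. The log2 difference was 3.28 (standard error 0.54), the second highest among 13796 genes tested. It was 2.61 without NC 3 and 3.24 with the GC and length trend removed. Thus the size of the difference, but not its direction, moved with 1 library. The trend step took FTH1 at a GC content of 50.1%, that of its longest transcript.

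The balance between both chains differed as well, since FTH1 was several times farther apart between the groups than FTL. The FTH1 level was 7.40%, 5.88% and 1.92% of the FTL level in NC 1, NC 2 and NC 3, and 29.6%, 28.9% and 25.2% in siPSCA. The means were 5.07 ± 2.83% and 27.9 ± 2.35% (SD, n = 3). Both chains are counted per kilobase of exon here, over 2030 bases for FTH1, so the ratio depends on the reads that could be assigned to each gene.

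Limits of that assignment were sizable for FTH1. Of its 2030 exonic bases, 1267 (62.4%) lie in exons of BEST1, a chloride channel gene on the other strand, and whether the counting used strand is not given in the sources used here. In FTH1-201 exons 2 to 4, 880 bases with a GC content of 43.1%, lie wholly within BEST1 exons, and exon 1 of 349 bases, with 67.9% GC, lies outside. BEST1 itself had 12, 20 and 14 reads in NC and 7, 7 and 19 reads in siPSCA, with overlapping groups. FTH1 also has near-identical processed pseudogenes, and 40.4% of the 50-base windows of FTH1-201 recur in transcripts of other genes, against 18.3% for FTL-201. At 150 bases these shares were 0.741% and 0%. The part of these overlaps in the FTH1 values was not tested. Removal of the GC and length trend used 1 GC value for the gene, so it could not take account of reads limited to exon 1.

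The pseudogenes took few reads. The 25 rows named FTH1P had 218, 214 and 221 reads in all in NC 1, NC 2 and NC 3, and 281, 334 and 371 reads in siPSCA. Scaled to 1000000 reads on genes these were 13.5, 12.7 and 13.2 against 17.5, 19.9 and 21.4. The groups did not overlap, and NC 3 did not stand out in the sum. Single rows differed in this. FTH1P2 had 27, 29 and 70 reads in NC 1, NC 2 and NC 3, which raised the NC 3 sum. FTH1P7 (75, 71 and 57) and FTH1P3 (16, 17 and 6) were lowest in NC 3, and FTH1P23 (36, 28 and 31) was not. The 25 rows made up 21.7% of all reads on FTH1 and its pseudogenes in NC 3, and 1.29% to 6.70% in the other libraries. With them added, the log2 difference of the scaled FTH1 reads was 3.18, against 3.33 for the gene alone. For FTL, 16 pseudogene rows held 20 to 36 reads per library, and the log2 difference was 0.66 with or without them.
Of the pseudogene rows with a mean of at least 1 FPKM, FTH1P23 (log2 difference 0.71, adjusted p = 0.0045) and FTH1P8 (0.49, adjusted p = 0.024) rose. FTH1P2 (0.60), FTH1P7 (0.39), FTH1P3 (0.29), FTLP3 (0.46) and FTLP12 (0.05) did not pass the test. The call of FTH1P8 was lost without NC 1, siPSCA 1 or siPSCA 3 (adjusted p = 0.064, 0.084 and 0.067), while FTH1P2 passed without NC 3 (0.98, adjusted p = 0.0024) and FTH1P7 without siPSCA 1 (adjusted p = 0.025). Reads from the parent genes can be assigned to such rows, so these values are uncertain.

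**Figure D1:**
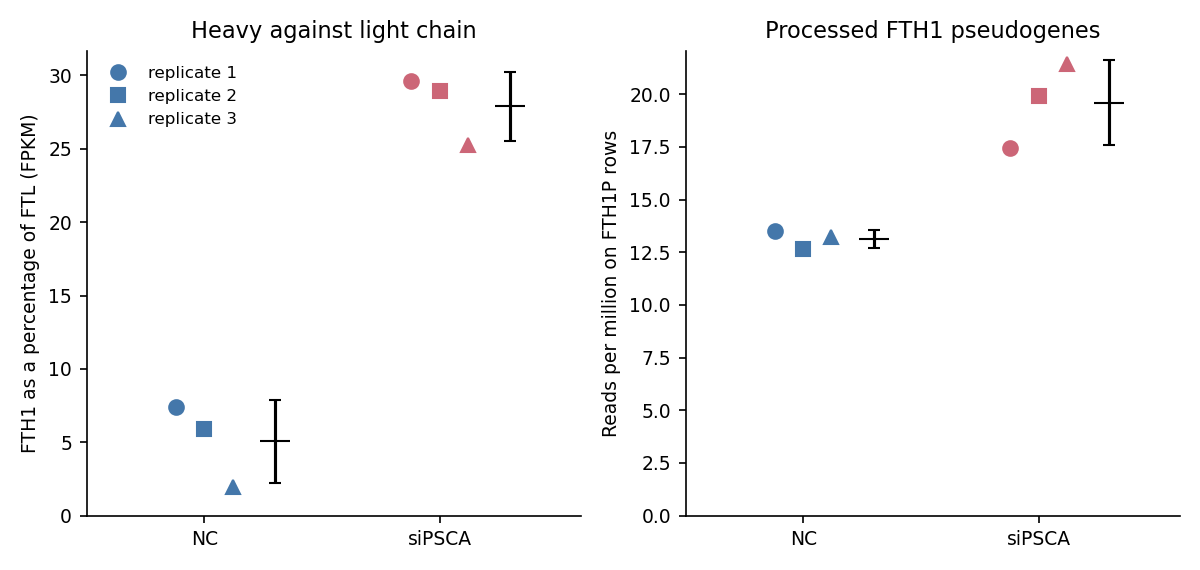
Left, FTH1 level as a percentage of FTL level (FPKM) in each library. Right, reads on the 25 FTH1P rows, scaled to 1000000 reads on genes. Circles, squares and triangles mark replicates 1, 2 and 3, and the black bars give mean ± SD. NC 3 is lowest on the left, at 1.92%, but not on the right, at 13.2, where FTH1P2 alone gave 70 reads in NC 3.

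Of the iron importers, TFRC was modestly higher in siPSCA and SLC11A2 overlapped. TFRC, the transferrin receptor that carries iron-loaded transferrin into the cell, measured 35.0, 36.9 and 38.0 FPKM in NC 1, NC 2 and NC 3. In siPSCA it measured 44.1, 43.1 and 44.6 FPKM. All siPSCA libraries were higher than all NC libraries, by 20.0% in the mean (36.6 ± 1.50 against 43.9 ± 0.795 FPKM, SD, n = 3). The log2 difference was 0.26 (standard error 0.05), and it was 0.56 with the GC and length trend removed.
SLC11A2, or DMT1, passes ferrous iron across the endosomal and apical membrane. Its level was 5.59, 5.48 and 5.64 FPKM in NC and 5.66, 5.45 and 5.98 FPKM in siPSCA, and the groups overlapped. The log2 difference was 0.03 (standard error 0.05), and 0.30 with the GC and length trend removed.

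The exporter was barely transcribed. SLC40A1 encodes ferroportin, the iron exporter of mammalian cells, and had 10, 6 and 3 reads in NC and 17, 5 and 7 reads in siPSCA (0.0402 to 0.232 FPKM). It was the only gene of the 10 below the minimum mean of 1 FPKM and its groups overlapped, so a difference was not detectable at this depth.

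The transcripts of the iron sensors were all slightly lower in siPSCA. ACO1, which encodes IRP1, measured 12.1, 12.0 and 12.9 FPKM in NC and 11.0, 10.7 and 10.6 FPKM in siPSCA. IREB2, which encodes IRP2, measured 11.8, 12.1 and 12.9 FPKM in NC and 9.97, 10.4 and 10.7 FPKM in siPSCA. FBXL5, the iron-sensing subunit of the ubiquitin ligase for IRP2, measured 11.0, 11.3 and 13.4 FPKM in NC and 9.58, 9.03 and 9.94 FPKM in siPSCA. For each of them every siPSCA library lay below every NC library.
The log2 differences were -0.18 for ACO1 (standard error 0.05), -0.22 for IREB2 (standard error 0.06) and -0.29 for FBXL5 (standard error 0.08), and the means differed by -12.7%, -15.6% and -19.9%. These directions did not all hold against the GC trend. With the trend on GC content and length removed, the log2 difference of IREB2 turned to 0.18, and those of ACO1 and FBXL5 came to -0.05 and -0.02. The longest transcripts of these genes have a GC content of 45.7% (ACO1), 38.3% (IREB2) and 40.5% (FBXL5). The ratio of ACO1 to IREB2 level was 1.01 ± 0.0171 in NC and 1.04 ± 0.0576 in siPSCA (SD, n = 3) and overlapped.

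NCOA4 and HMOX1, which act in the release of iron from ferritin and heme, showed no separation between the groups. Iron release itself was not measured. NCOA4, the cargo receptor of ferritin in selective autophagy, measured 40.0, 41.6 and 50.1 FPKM in NC and 42.1, 42.3 and 44.6 FPKM in siPSCA. NC 3 was the highest library. The log2 difference was -0.02 (standard error 0.09), 0.07 without NC 3 and 0.14 with the GC and length trend removed.
HMOX1, the inducible heme oxygenase and a target of the NRF2 and BACH1 factors, measured 24.7, 25.7 and 19.7 FPKM in NC and 26.2, 23.1 and 21.8 FPKM in siPSCA. NC 3 was the lowest library, and the groups overlapped. The log2 difference was 0.02 (standard error 0.12), -0.09 without NC 3 and -0.31 with the GC and length trend removed. In the fit of all 6 libraries the differences were small beside their standard errors, and the values set no direction for NCOA4, HMOX1 or SLC11A2. With the GC and length trend removed, SLC11A2 (0.30) and HMOX1 (-0.31) moved farther, in opposite directions.

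**Figure D2:**
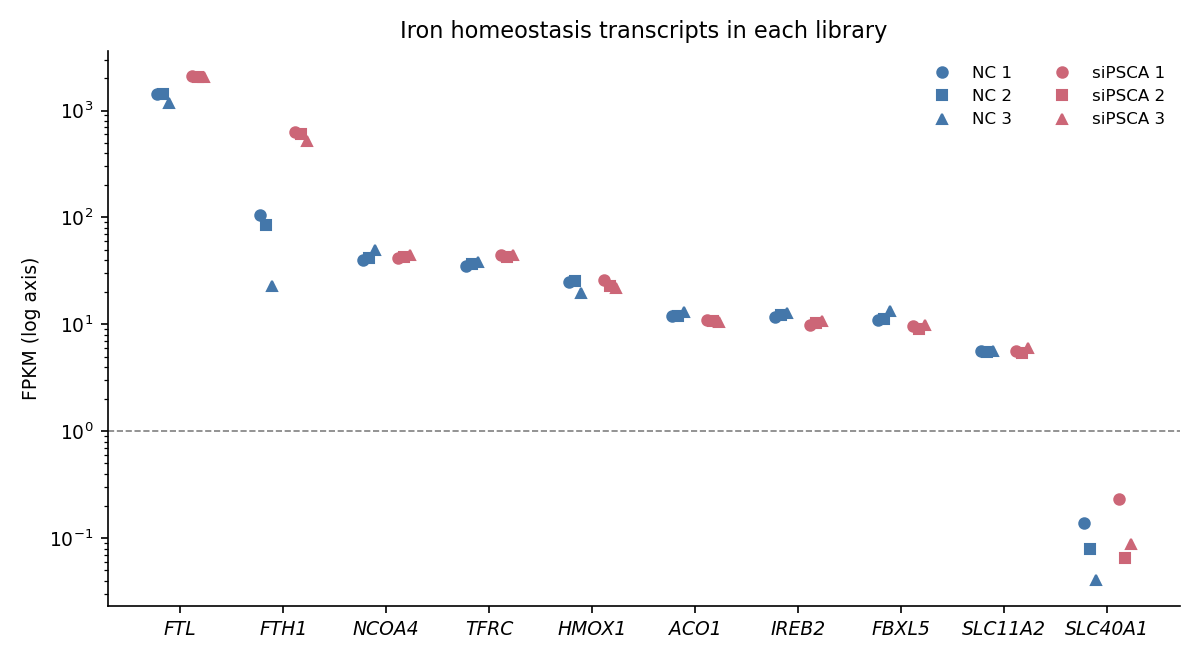
Level of each of the 10 transcripts in FPKM, on a log axis, in order of the NC mean. Blue marks NC, red marks siPSCA, and shapes mark replicates. The dashed line is the minimum of 1 FPKM for testing, with only SLC40A1 under it. FTH1 shows the widest gap and NC 3 its lowest value, 22.8 FPKM.

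In order of the NC mean the levels ran from FTL (1348 FPKM) through FTH1, NCOA4 (43.9), TFRC, HMOX1 (23.4), ACO1, IREB2, FBXL5 and SLC11A2 (5.57) to SLC40A1 (0.0857). FTL had 19.0 times the mean level of FTH1. In NC, the neighbors FTH1 and NCOA4, ACO1 and IREB2, and IREB2 and FBXL5 overlapped in this order. In siPSCA FTH1 stood clear of NCOA4, while NCOA4 overlapped with TFRC and ACO1 with IREB2.

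In the values from all 6 libraries, the 5 transcripts known to carry an IRE (FTH1, FTL, SLC40A1, TFRC and SLC11A2) did not move as one. Among those with the element in the 5′ UTR, FTH1 was 8.22-fold and FTL 1.55-fold the NC level, although their elements differ in only 3 of 29 bases, and SLC40A1 was too low to judge. Among those with a 3′ UTR element, TFRC was 1.20-fold the NC level and SLC11A2 overlapped. Levels are per gene over all its transcripts, so SLC11A2 transcripts that carry the element were not measured apart. Measured from the NC mean on the log2 scale, the siPSCA libraries lay at 3.13 to 3.38 for FTH1, 0.63 to 0.65 for FTL, 0.23 to 0.28 for TFRC, -0.03 to 0.09 for SLC11A2 and -0.03 to 0.18 for SLC40A1. ACO1 and IREB2, whose 3′ UTR matches have 4 of 5 pairs like that of SLC11A2, lay below the NC mean in all siPSCA libraries (-0.20 to -0.15 and -0.27 to -0.18). With the GC and length trend removed, the log2 differences were 3.24 for FTH1, 0.49 for FTL, 0.56 for TFRC and 0.30 for SLC11A2. These were then all higher in siPSCA, but by unlike amounts, while IREB2 turned to 0.18 and ACO1 came to -0.05. Since mRNA was measured, translation from the 5′ UTR elements was not assessed.

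**Figure D3:**
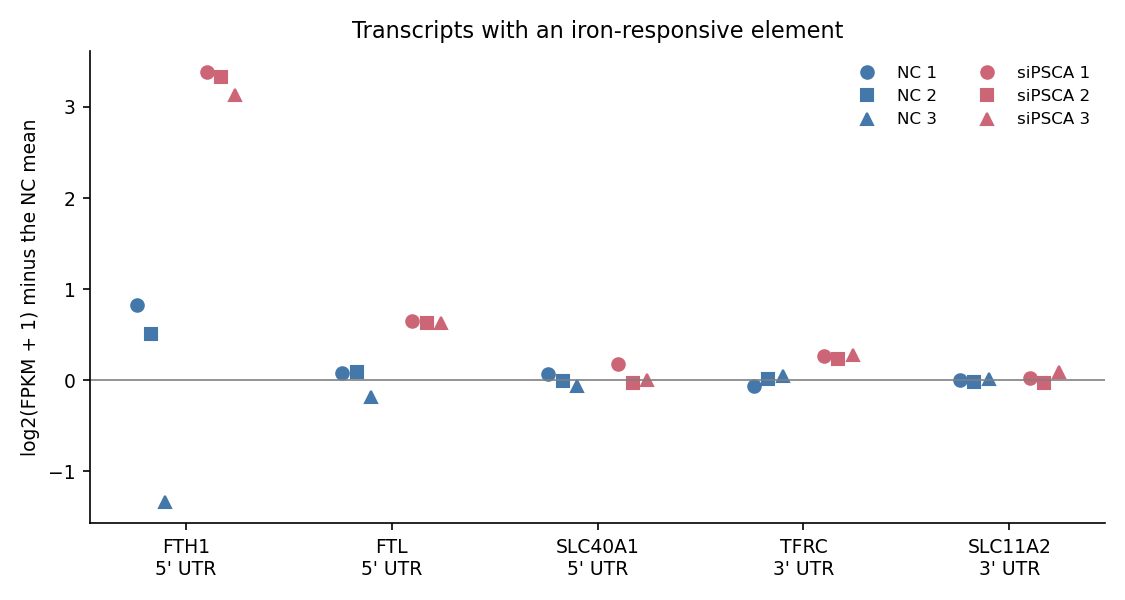
Each library's log2(FPKM + 1) minus the NC mean for the 5 transcripts known to carry an IRE, 3 in the 5′ UTR and 2 in the 3′ UTR. The siPSCA libraries of FTH1 sit at 3.13 to 3.38 and those of SLC11A2 at -0.03 to 0.09. NC 3 of FTH1 sits at -1.33.

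All 10 genes counted, 9 passed the minimum of 1 FPKM. In the fit over all genes, 3 of the 9 would be called higher in siPSCA (FTH1, FTL and TFRC), where 26.6% of all 13796 tested genes were called higher. A further 3 would be called lower (ACO1, IREB2 and FBXL5), where 24.2% of all were called lower, and 3 were not called. Groups did not overlap for 6 of the 10 genes, as for 64.5% of all tested genes. Since the genes were selected on this contrast, nothing is read from these counts.

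**Figure D4:**
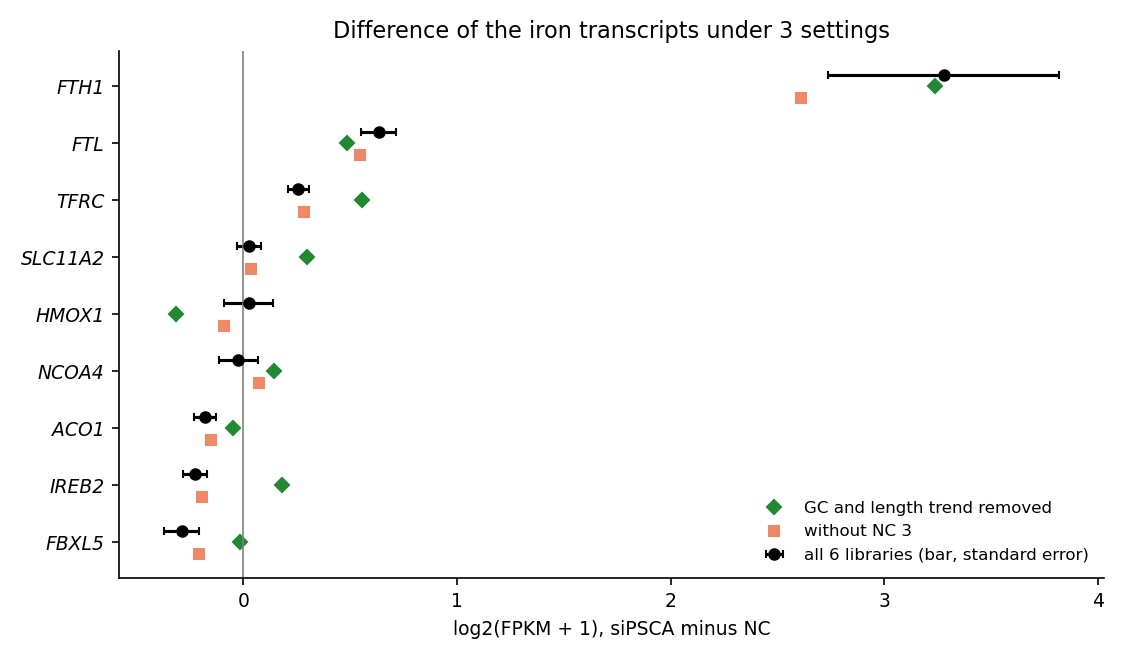
Difference between siPSCA and NC on the log2(FPKM + 1) scale for the 9 transcripts above the minimum, from all 6 libraries (black, bars give the standard error), with the GC and length trend removed (green) and without NC 3 (orange). FTH1 is at 2.61 or above in each setting, and IREB2 changes side, from -0.22 to 0.18.

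The whole set of tested genes with a fully paired IRE pattern was no more uniform. Of 23 tested genes with a match in the 5′ UTR, 10 were called higher (43.5%, against 26.6% of all tested genes) and 4 lower (17.4%, against 24.2%), with a median log2 difference of 0.12. That median was 0.09 with the GC and length trend removed. Of 102 with a match in the 3′ UTR, 26 were called higher (25.5%) and 32 lower (31.4%), with a median of -0.04 that turned to 0.06 with the GC and length trend removed. In the 3′ UTR group the share called higher lay near that of all tested genes. Over all tested genes the median was 0.01. The 5′ UTR group includes FTH1 and FTL, and the 3′ UTR group includes TFRC.
Of other transcripts with a published IRE, CDC42BPA, a kinase of the cytoskeleton, fell from 11.5 ± 1.21 to 8.05 ± 0.565 FPKM (SD, n = 3, log2 difference -0.47, adjusted p = 0.0068 from limma), and its log2 difference was -0.19 (adjusted p = 0.023) with the GC and length trend removed. EPAS1, which encodes HIF-2α, gave -0.15 (adjusted p = 0.053) and CDC14A, a phosphatase, gave -0.03 (adjusted p = 0.79), and neither passed, although EPAS1 did with that trend removed (-0.22, adjusted p = 0.011). ALAS2, the erythroid enzyme of heme synthesis, was under 1 FPKM.

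The profile of FTH1 over the 6 libraries had many near matches. Among 11078 protein-coding genes, the highest Pearson correlations of log2(FPKM + 1) with FTH1 were those of NCAPH2 (r = 0.99991), FLNA (0.9999), SNRPA (0.99977), TMEM238 (0.99972) and BX255925.3 (0.99968). These genes had a GC content between 58.3% and 73.7%, and TMEM238, with the largest difference of the 5, had 3.99, 3.04 and 0.522 FPKM in NC and 16.8, 16.1 and 14.7 FPKM in siPSCA. Closest to FTL were CSK (0.99959), PIGT (0.99932), SNAPC4 (0.99926), HOXB5 (0.99923) and ZSWIM9 (0.99918). The GC content of these neighbors of FTL ran from 48.6% (PIGT) to 65.0% (ZSWIM9). FTH1 and FTL had r = 0.991 with each other. These correlations rest on 6 libraries in 2 groups and are a description.

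Beyond the 10 genes, 87 other genes of iron handling were listed by role, and 73 passed the minimum. Of these 33 rose (45.2%, against 26.6% of all tested genes), 12 fell (16.4%, against 24.2%) and 28 did not pass, with a median log2 difference of 0.10. The list was drawn up with earlier results of these data known, so these shares, and those of each role below, are given as a description. After removal of the GC and length trend 23 rose and 11 fell, with a median of 0.16. With that step 5524 of all 13796 tested genes passed in either direction, against 7001 without it. The shares of 26.6% and 24.2% belong to the fit without this step, here and for each role below. They are no background for counts made with the trend removed. Only 19 of the 23 rises and 8 of the 11 falls were the same genes as before. The count of rises was 19 without siPSCA 1 and 21 without siPSCA 2. The adjusted p-values are those of limma over all 13796 genes.

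Genes of heme synthesis were mostly higher in siPSCA. Of 8 tested, 6 rose (75%, against 26.6% of all tested genes) and 1 fell (12.5%, against 24.2%). The median log2 difference was 0.39. UROS, which closes the porphyrin ring, rose from 5.50 ± 0.201 to 8.24 ± 0.403 FPKM (SD, n = 3, log2 difference 0.51, adjusted p = 0.0016) and PPOX, the last but one enzyme, rose by 0.58 on the log2 scale (adjusted p = 0.028). CPOX, which forms protoporphyrinogen, fell from 197 ± 3.89 to 158 ± 5.79 FPKM (log2 difference -0.32, adjusted p = 0.0033). PPOX no longer passed without any 1 of the siPSCA libraries (0.53 to 0.64, adjusted p = 0.057 to 0.085) or with the GC and length trend removed (0.17, adjusted p = 0.28). After removal of that trend 4 genes of the group rose and 1 fell, with a median of 0.18.

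Iron-sulfur cluster assembly supplies the cofactor that turns IRP1 into an aconitase. Of 30 tested genes, 15 rose (50%, against 26.6% of all tested genes) and 1 fell (3.33%, against 24.2%). The median log2 difference was 0.18. With the GC and length trend removed 14 rose and 1 fell, but the rises were not all in the same genes. The largest rises were in genes of the cytosolic branch. NDOR1, the reductase that feeds it electrons, rose from 5.07 ± 1.88 to 14.8 ± 0.402 FPKM (log2 difference 1.43, adjusted p = 0.0046), CIAO2B, of the targeting complex, from 20.9 ± 4.99 to 42.2 ± 2.20 FPKM (1.01, adjusted p = 0.0050), and NUBP2, of the scaffold, from 7.35 ± 2.89 to 14.6 ± 0.651 FPKM (0.97, adjusted p = 0.025). The GC content of these 3 genes was 64.6%, 62.1% and 60.7%. The trend removed, the log2 differences of NDOR1 and CIAO2B were 0.79 and 0.60, and both still passed (adjusted p = 0.0039 and 0.0033). NUBP2 no longer passed with the trend removed (0.54, adjusted p = 0.062) or without any 1 of the siPSCA libraries (0.95 to 1.01, adjusted p = 0.059 to 0.076), and its log2 difference without NC 3 was 0.64. CISD2, an iron-sulfur protein of the endoplasmic reticulum, fell from 7.46 ± 1.04 to 4.58 ± 0.362 FPKM (log2 difference -0.59, adjusted p = 0.0053), and its log2 difference was -0.23 (adjusted p = 0.037) with the trend removed.

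Uptake genes went both ways, as did all tested genes. Of 10 tested, 4 rose (40%, against 26.6% of all tested genes) and 3 fell (30%, against 24.2%). The median log2 difference was 0.07. TFR2, a second transferrin receptor (0.50, adjusted p = 0.030), SLC46A1, a heme and folate carrier (0.40, adjusted p = 0.018), and STEAP3, the endosomal ferrireductase (0.26, adjusted p = 0.011), rose. The metal importer SLC39A8 fell from 12.7 ± 0.695 to 8.02 ± 0.480 FPKM (-0.60, adjusted p = 0.0014), and the ferrireductases STEAP2 (-0.41, adjusted p = 0.0027) and CYBRD1 (-0.21, adjusted p = 0.044) also fell. Only SLC39A8 of these 6 still passed with the GC and length trend removed (-0.45, adjusted p = 0.0022), and STEAP3 (-0.020) and CYBRD1 (0.053) changed sign. Several of these calls also rested on single libraries. TFR2 lost its call without any 1 of the siPSCA libraries (0.48 to 0.52, adjusted p = 0.076 to 0.092), SLC46A1 without siPSCA 1 (0.33, adjusted p = 0.066), STEAP3 without siPSCA 2 (0.24, adjusted p = 0.050) and CYBRD1 without any library but NC 2 (-0.24 to -0.18, adjusted p = 0.069 to 0.13). None of the 6 genes of iron export and the hepcidin axis, including the ferroxidase HEPH and the hormone gene HAMP, reached a mean of 1 FPKM.

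Among partners of ferritin, PCBP1, a chaperone that loads iron into the shell, rose from 41.1 ± 2.37 to 68.7 ± 6.58 FPKM (SD, n = 3, log2 difference 0.72, adjusted p = 0.0017). HERC2, a ligase that acts on NCOA4, rose by 0.34 (adjusted p = 0.0023). TAX1BP1, an autophagy receptor that works with NCOA4, fell from 20.1 ± 2.13 to 11.2 ± 0.498 FPKM (log2 difference -0.78, adjusted p = 0.0014). All these calls held with the GC and length trend removed. PCBP2, listed in the same role as PCBP1, went the other way without passing. It had 21.4 ± 1.11 FPKM in NC and 19.2 ± 0.886 in siPSCA, with groups apart (log2 difference -0.15, adjusted p = 0.086). It passed without NC 3 (-0.18, adjusted p = 0.030) but not with the trend removed (-0.09, adjusted p = 0.32). FTMT, the mitochondrial ferritin, and FTHL17 were listed at 0 in all libraries.

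In the group around IRP control and mitochondrial iron, 1 of 5 rose (20%, against 26.6% of all tested genes) and 2 fell (40%, against 24.2%). SLC25A37, the mitochondrial iron carrier mitoferrin-1, fell from 19.1 ± 0.883 to 11.8 ± 0.334 FPKM (log2 difference -0.65, adjusted p = 0.0008), and its paralog SLC25A28 rose from 17.4 ± 1.76 to 22.8 ± 0.734 FPKM (0.38, adjusted p = 0.0092). SKP1, a subunit of the FBXL5 ligase, fell by 0.32 on the log2 scale (adjusted p = 0.020). After removal of the GC and length trend SLC25A37 was still lower (-0.64), SLC25A28 no longer passed (0.08, adjusted p = 0.31) and SKP1 changed sign (0.036). SKP1 also lost its call without any 1 of the siPSCA libraries (-0.34 to -0.30, adjusted p = 0.051 to 0.070).

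Of 12 tested genes of heme breakdown and transport, 4 rose (33.3%, against 26.6% of all tested genes) and 3 fell (25%, against 24.2%). The median log2 difference was 0.00. KEAP1, which holds NRF2 down, rose from 16.2 ± 2.12 to 32.8 ± 1.83 FPKM (SD, n = 3, log2 difference 0.98, adjusted p = 0.0012), and NFE2L2, which encodes NRF2, fell from 27.3 ± 1.59 to 19.7 ± 1.22 FPKM (-0.45, adjusted p = 0.0034). BLVRB, a biliverdin reductase (0.52, adjusted p = 0.0096), and SLC48A1, a lysosomal heme transporter (0.47, adjusted p = 0.0033), rose. PGRMC2, a heme chaperone, fell from 16.1 ± 1.07 to 10.1 ± 0.115 FPKM (-0.62, adjusted p = 0.0010), and FLVCR1, a heme exporter, fell by 0.18 on the log2 scale (adjusted p = 0.045). With the GC and length trend removed, BLVRB (0.23, adjusted p = 0.083) and SLC48A1 (0.16, adjusted p = 0.054) no longer passed, FLVCR1 changed sign (0.044) and KEAP1 still passed at 0.53 (adjusted p = 0.0006). FLVCR1 passed only with all libraries or without NC 3, and without any other it had -0.19 to -0.14 (adjusted p = 0.11 to 0.12).

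**Figure D5:**
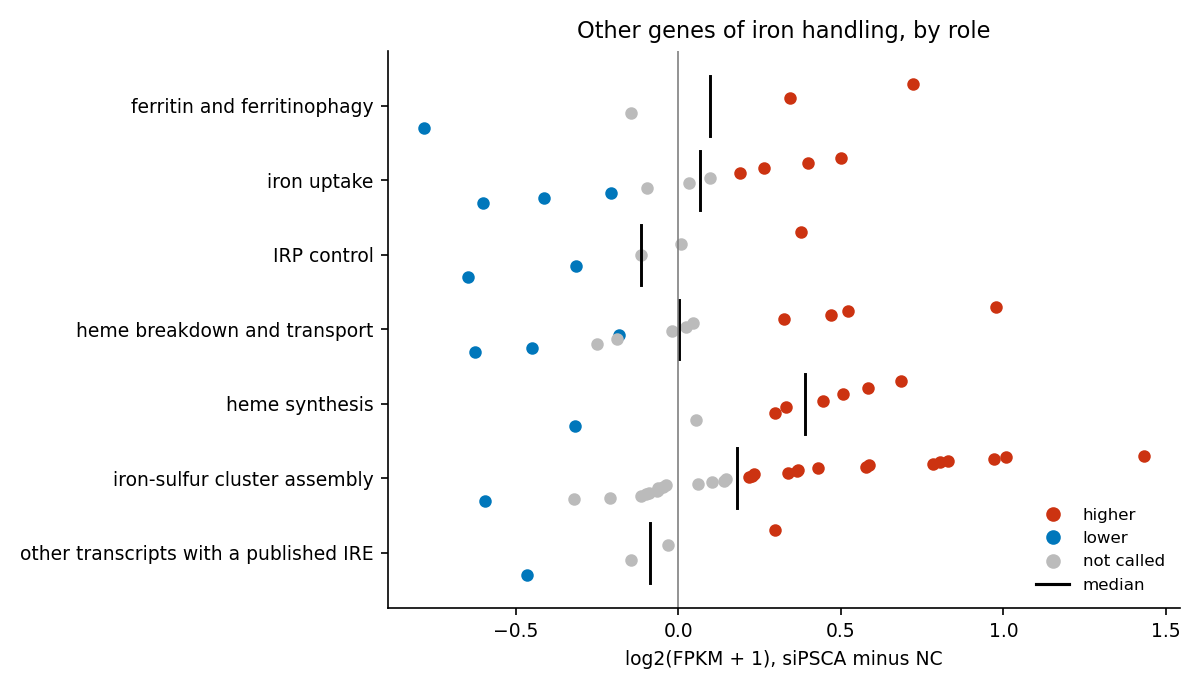
Difference between siPSCA and NC on the log2(FPKM + 1) scale for the 73 tested genes of the iron list, by role (IRP, iron regulatory protein). Red points rose, blue points fell and gray points did not pass an adjusted p of 0.05. Black lines give the median of each role, which runs from -0.11 (IRP control) to 0.39 (heme synthesis).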

How the data were processed

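RNA sequencing libraries of HCT116SCs (NC, n = 3; siPSCA, n = 3) were grouped by the sample labels. The titles of siPSCA 2 and siPSCA 3 carry other numbers after HCT, whereas their other labels name HCT116, and they were kept. Libraries were built with the NEBNext Ultra RNA kit and sequenced paired-end. The authors deposited FPKM values for 58735 genes. The genome was GRCh38 per the labels, and the aligner, the counter and its strand setting are not given in the sources used here. FPKM times gene length was a whole multiple of 1 read for 100% of values (tolerance 0.05 reads), which gave reads per gene.

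The limma 3.58.1 model (R 4.3.3, lmFit, eBayes with a trend) had the group as its sole term and was run on log2(FPKM + 1) of 13796 genes with a mean of at least 1 FPKM, and p-values were 2-sided and adjusted by Benjamini and Hochberg. A fold change on this scale understates the change of low genes. In an alternative, splines with 5 degrees of freedom took out each library's trend on GC content and gene length, with GC taken from the longest GENCODE 29 transcript. Python 3.11.15 served for tables and figures (numpy 2.4.6, pandas 2.3.3, matplotlib 3.10.9).

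The 10 genes and the iron lists were chosen with earlier results of these data known. Genes named outside the 10 were the 3 largest rises and falls per role with an adjusted p under 0.05 and groups apart, the pseudogene rows of at least 1 FPKM, the other published IRE transcripts and the 5 most similar profiles. PCBP2, FTMT, FTHL17, HEPH and HAMP were named after their values were seen. Some genes that this rule names are not reported here. Alternatives were other pseudocounts, minimums and scalings, limma-voom on recovered reads, a replicate block, the GC and length trend, and leaving out each library. Limits derived from reads cover counting error only.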

Additional observations from a re-analysis of the deposited data

How the results depend on the processing

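Of 13796 tested genes, 7001 passed. Separate fits gave 4642 with the GC and length trend removed and the replicate block, and 4627 to 7425 when single libraries were left out. The rises of the iron list numbered 33 in the fit of all libraries, 21 with the GC and length trend removed and the replicate block, and 19 (without siPSCA 1) to 32 (without NC 3) with single libraries left out, and the falls numbered 9 to 13. Libraries of the same number did not clearly deviate together in every pair (correlations 0.0955, 0.0132 and 0.134). These values cannot settle whether the numbers pair the libraries, and the replicate block is given as an alternative. With the replicate block alone, 29 genes of the list rose and 12 fell, 29 and 10 of them the same genes. In this balanced design the block leaves each log2 difference as it is and changes only its error. With the GC and length trend removed, with or without the block, the log2 difference of IREB2 was 0.18, of CYBRD1 0.053, of STEAP3 -0.020, of SKP1 0.036 and of FLVCR1 0.044, each opposite in sign to the value from all libraries without this step, and the cause was not tested. Leaving out single libraries, the log2 difference of FTH1 ran from 2.61 (without NC 3) to 3.69 (without NC 1) and that of FTL from 0.55 to 0.68. Median-ratio scaling, chosen after seeing the data, gave 3.26 for FTH1, 0.62 for FTL and 32 rises and 14 falls of the list. Tests made for raw counts (edgeR, DESeq2 and TMM scaling) were not run, since the values are FPKM. Depth limits SLC40A1, at 3 to 17 reads per library.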
